A study of Mus musculus with 15 samples.

Results

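The far intergenic tiles are 9050 windows of 1 kb, 6.83% of the 132441 autosomal tiles that could be measured. A tile began at a multiple of 1000 bases (mm10), held at least 3 CpG cytosines read at least 10 times in each of 15 libraries, and lay over 50 kb from any protein-coding or lncRNA gene in the RefSeq table of the same build (GRCm38.p6). The choice used position and coverage only, not methylation levels. Of the remaining tiles, 91568 overlapped such a gene and 31823 lay up to 50 kb from one. Other annotated features do not count as genes under this rule, so 348 of the far tiles (3.85%) overlapped a pseudogene and 100 lay in an antigen receptor locus such as Igk, Igh or Tcra. A narrower set of 5747 tiles was over 50 kb from any annotated gene of any kind.

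Whole lung DNA from Ctcf heterozygous mice and wild-type littermates was profiled by reduced representation bisulfite sequencing (RRBS) and its enhanced form, which read methylation as unconverted cytosine in CpG-containing restriction fragments. The 7 wild-type mice (labelled as 3 males and 4 females, 48 to 55 weeks old) and the 8 heterozygous mice (labelled as 4 males and 4 females, 46 to 54 weeks old) had all received 1 dose of urethane, a lung carcinogen, at 1 mg/g body weight on day 14. Every group is thus a carcinogen-exposed one, and the whole lung holds many cell types, so a change of level within cells and a change of cell makeup cannot be told apart. No expression was measured, and the labelled tissue was not checked against marker genes.

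In mammalian genomes most CpG sites far from genes are methylated, and the maintenance methyltransferase copies that state at each cell division. Stretches rich in CpG sites, and enhancers bound by transcription factors, are the usual exceptions and stay low in methylation. CTCF is a zinc finger protein that anchors chromatin loops and binds many of its sites less well when they are methylated, and the series title names the question of whether loss of 1 Ctcf copy destabilises methylation.

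Total coverage, summed over all listed cytosines, ran from 217363415 (heterozygous replicate 6) to 302342776 (heterozygous replicate 1). The median was 108 to 150 reads per cytosine. A read that spans several cytosines is counted once at each, here and in all read counts of tiles below. Such counts are therefore larger than the number of separate reads. The bisulfite reads carried no molecular identifiers, so read counts need not equal molecules and depth does not fully bound counting error. The targeted gene was read through the coverage of 8 cytosines in Ctcf. Coverage there was 5.06 to 5.89 per 1000000 of total coverage in 6 wild-type libraries and 1.64 to 3.20 in 7 heterozygous libraries. The library labelled wild-type replicate 2 had 2.91, and the library labelled heterozygous replicate 5 had 4.79. Their sex chromosomes also went against their labels. Wild-type replicate 2, labelled male, had a mean X methylation of 49.0% and 300 listed Y cytosines, where the other libraries labelled female had 48.4% to 50.9% and 271 to 326. Heterozygous replicate 5, labelled female, had 38.0% and 1985, where the other libraries labelled male had 37.6% to 38.5% and 1915 to 2055. Results are therefore given over all 15 libraries as labelled and over 13 libraries without these 2.

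In 2 places a far tile contained a miRNA gene, and the 2 tiles stood at opposite ends of the methylation range. Both genes were found in the RefSeq table (GRCm38.p6). Mir137, a miRNA best known from neurons, lies on chromosome 3 from 118433857 to 118433929 (plus strand), 64.3 kb from the lncRNA gene Gm26871 and 128 kb from Dpyd. Its mature forms are shown with the seed, bases 2 to 8, in capitals, and its hairpin in lower case throughout.
miR-137-5p: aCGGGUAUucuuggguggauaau
miR-137-3p: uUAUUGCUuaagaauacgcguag
Mir137 hairpin: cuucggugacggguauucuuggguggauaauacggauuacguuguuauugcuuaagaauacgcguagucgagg
Mir5099 lies on chromosome 12 from 36816205 to 36816278 (plus strand), 66.0 kb from the lncRNA gene Gm40394, and is shown by its hairpin only, since no mature form was matched.
Mir5099 hairpin: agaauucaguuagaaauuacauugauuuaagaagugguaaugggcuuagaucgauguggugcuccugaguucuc
The tile with Mir137 (5 cytosines, 95 to 408 reads per library) had a level of 3.28% ± 2.24 (SD, n = 15), with a lowest value of 0%, a median of 3.21% and a highest of 6.99%. The tile with Mir5099 (9 cytosines, 745 to 1902 reads) had 93.9% ± 2.38 (SD, n = 15), from 88.8% to 96.5%. Neither tile differed by genotype past the threshold in the fit across all tiles described below. The quasi-binomial adjusted p was 0.783 for the Mir137 tile and 0.918 for the Mir5099 tile over 13 libraries, and 0.838 and 0.721 over 15.

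Mir137 was not an isolated low tile. It belonged to a run of 6 low tiles with 63 cytosines on chromosome 3 from 118425000 to 118435999, where low means a mean level under 20% and tiles of a run are at most 10 kb apart. Their mean levels ran from 2.71% to 8.45%. The nearest measured far tile before the run, centred 26.4 kb before the hairpin start, had 80.2%. All 6 tiles of the run averaged higher in heterozygous than in wild-type libraries (13 libraries), by 0.346 to 1.61 percentage points, and none passed the threshold (adjusted p of 0.608 or more). The mean difference of the run was 0.969 points over 13 libraries and 0.730 over 15.

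**Figure D1:**
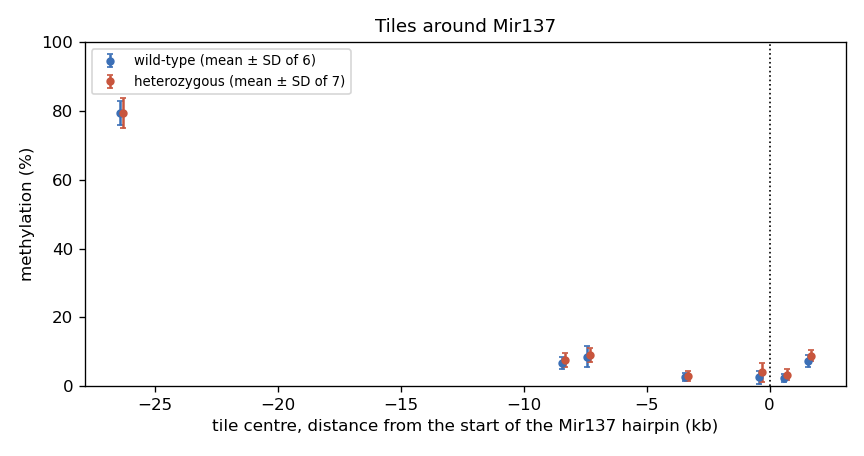
Methylation level in percent (y axis) of the 7 far intergenic tiles around Mir137, by distance of the tile centre from the start of the hairpin in kb (x axis). Points are means and bars SD over 6 wild-type and 7 heterozygous libraries (13 libraries). The 6 tiles of the run lie under 10% in both genotypes and the tile farthest left near 80%.

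Far from genes, lung DNA was mostly methylated. The mean level of the 9050 tiles was 79.3% over libraries, and the median tile stood at 86.0%. By level, 6008 tiles (66.4%) were over 80%, 2827 (31.2%) lay between 20% and 80%, and 215 (2.38%) were under 20%. Over all measured tiles the mean was 58.5% and 22.8% were under 20%. Tiles overlapping a gene had a mean of 54.3%, and those up to 50 kb from a gene 64.8%. The 100 tiles in antigen receptor loci, where V, D and J segments are arrayed, averaged 83.2%, the 347 over a pseudogene elsewhere 81.8%, the 27 over another annotated gene 72.6% (5 of them under 20%), and the 8576 over no annotated gene of any kind 79.1%. Each autosome held some, from 141 on chromosome 19 (3.41% of its measured tiles) to 867 on chromosome 1 (10.7%), with a highest share of 11.8% on chromosome 3. Their mean level by chromosome ran from 76.7% (chromosome 13) to 81.5% (chromosome 15).

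Methylation rose with distance from the nearest gene across the whole set. The 2609 tiles at 50 to 75 kb averaged 74.7%, the 1454 at 75 to 100 kb 78.0%, the 2467 at 100 to 200 kb 80.3%, the 1793 at 200 to 500 kb 83.2% and the 727 beyond 500 kb 84.8%. The order of these 5 distances was the same in 15 of 15 libraries. Low tiles thinned out along the same axis, from 4.48% of tiles at 50 to 75 kb to 0.550% beyond 500 kb. The distance limit itself marked no step: 765 tiles at 45 to 50 kb, just outside the set, averaged 75.1%, and 678 tiles at 50 to 55 kb, just inside, averaged 74.6%. Throughout, a CpG-rich tile is one with many measured cytosines, counted on each strand. CpG density in the sequence was not measured. Far tiles hold few measured cytosines (a median of 4, against 5 over all tiles), and CpG-rich tiles are low. The comparison was therefore repeated among tiles of 3 to 5 cytosines. There the mean was 70.1% over genes, 67.3% up to 10 kb, 73.6% at 10 to 50 kb, 77.3% at 50 to 100 kb and 81.8% beyond 100 kb. The rise with distance beyond the gene again held in 15 of 15 libraries.

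**Figure D2:**
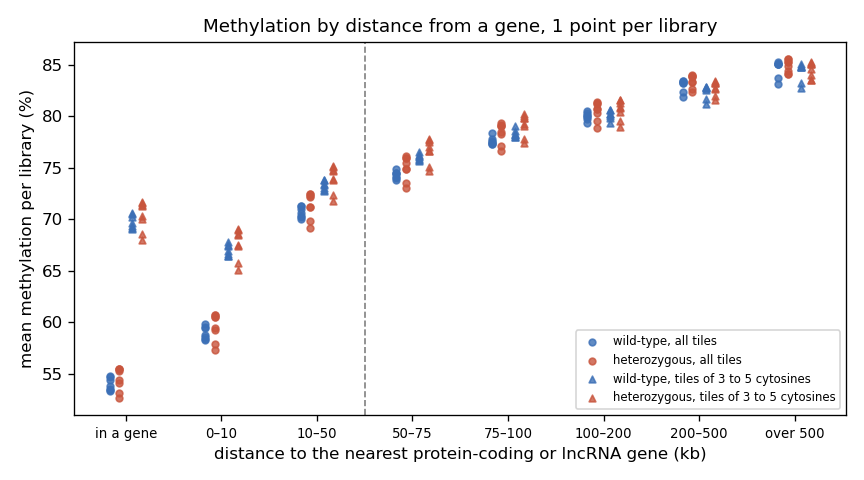
Mean methylation in percent (y axis) by distance class to the nearest protein-coding or lncRNA gene in kb (x axis), 1 point per library, for all tiles (circles) and tiles of 3 to 5 cytosines (triangles). The far intergenic tiles are right of the dashed line, where the class means rise from 74.7% to 84.8%.

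The number of measured cytosines in a tile went with its level. Far tiles of 3 to 5 cytosines averaged 79.8%, of 6 to 10 79.7%, of 11 to 20 76.4%, and the 61 tiles with more than 20 averaged 37.3%. Other tiles of the same counts averaged 70.2%, 63.4%, 43.1% and 6.04%. Thus 34 of the 61 CpG-rich far tiles were under 20%, while 14 of them were over 80%. Of the 16753 CpG-rich tiles elsewhere, 92.7% were under 20%.

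The farthest tiles lay in a gene desert of chromosome 3 between D3Ertd751e and Pcdh10, a protocadherin gene, and all 5 were highly methylated. The tile from 43636000 to 43636999 was 1643 kb from the lncRNA gene 2610316D01Rik and had 86.5% ± 1.62 (SD, n = 15). Those beginning at 43429000, 43370000, 43306000 and 43824000 had 89.9%, 94.9%, 92.6% and 83.8%. Their SD over the 15 libraries was between 1.41 and 4.23 percentage points. The tile at 43824000 had as few as 57 reads in 1 library. None of the 5 passed the threshold by genotype (adjusted p of 0.884 or more over 13 libraries and 0.863 or more over 15).

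Low islands far from genes were few and mostly single. The 215 low tiles formed 164 runs, 135 of them of 1 tile and 11 of 3 or more. The most CpG-rich far tile, with 148 cytosines, was on chromosome 15 from 68362000 to 68362999, 103 kb from Zfat, a zinc finger gene, and 20.7 kb from Mir30d. It had 0.104% ± 0.0335 (SD, n = 15) from 16850 to 24733 reads per library. Its neighbour from 68363000 was the lowest of all far tiles, at 0.0634% (61 cytosines). On chromosome 8, 3 low tiles with 185 cytosines from 73352000 to 73354999 stood 565391 bases from the lncRNA gene Gm39198. Their nearest protein-coding gene was F2rl3, a thrombin receptor gene, and their mean level was 1.01%. Also on chromosome 8, a tile of 116 cytosines from 92460000 to 92460999, 98.5 kb from the homeobox gene Irx5, had 1.79% ± 0.781 (SD, n = 15). Chromosome 13 had a run of 4 tiles with 160 cytosines from 3358000 to 3361999 at 1.74%, with Gdi2, a regulator of Rab proteins, as the nearest protein-coding gene. Chromosome 10 had 4 tiles with 167 cytosines from 7390000 to 7393999 at 2.92%, near Ulbp1, a ligand of a natural killer cell receptor. These 2 runs and the longest ones are named after their values were seen.

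The remaining CpG-rich and lowest tiles were of the same kind. On chromosome 2 the tile from 116975000 (72 cytosines, 82.5 kb from Tmco5) had 1.31%, and on chromosome 12 the tile from 23189000 (66 cytosines) had 9.17% and a range over libraries of 4.14% to 15.3%. On chromosome 17 the tile from 83276000 (64 cytosines, 50.9 kb from Pkdcc, a secreted kinase of skeletal growth) had 0.273%. Tiles near Parp8 (chromosome 13, from 116712000), Slc24a2, a sodium-calcium exchanger gene (chromosome 4, from 87368000), and Cp, which encodes ceruloplasmin (chromosome 3, from 19894000), had 0.146%, 0.154% and 0.160%. The tile near Cp overlapped the transcribed pseudogene 4632415L05Rik. By contrast, the most deeply read far tile was near Pex2, a peroxisome assembly gene (chromosome 3, from 5860000, 19 cytosines). It took 71982 to 153019 reads per library, against a median of 571 reads per far tile, and had 12.2% ± 1.54 (SD, n = 15). Whether reads from other copies of that sequence were counted there was not tested.

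Families of neighbouring genes, chosen with earlier results of these data known, are given by their counts beside those over all tiles. A developmental transcription factor (homeobox, Sox, Fox, Tbx, Gata and like genes) was the nearest protein-coding gene of 399 far tiles (4.41%, near 58 genes), against 3.08% of all tiles. Those 399 averaged 69.6% and the other far tiles 79.7%. Over all tiles the same split gave 45.4% and 58.9%, so the gap was not particular to far tiles. Among the 215 low tiles, 19 (8.84%) were nearest to such a gene, including Irx5, Lhx1, Lhx5, Gata6, Nkx6-1 and Sox14. The share among low tiles elsewhere was not taken. Cadherin and protocadherin genes, which encode cell adhesion proteins, were nearest to 363 far tiles (4.01%, near 21 genes), against 0.807% of all tiles. Their far tiles averaged 84.8% and none was low. Over all tiles, those nearest to these genes averaged 69.9% and the others 58.4%. Olfactory and vomeronasal receptor genes were nearest to 55 far tiles (0.608%, against 0.740% of all tiles), which averaged 86.2%. Over all tiles, those nearest to such receptor genes averaged 81.0% and the others 58.4%.

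By genotype, the mean level of the far tiles differed by less than a percentage point, and the groups overlapped. Over 15 libraries the wild-type values were 78.4% to 79.5% with a median of 78.9%, and the heterozygous ones 78.0% to 80.3% with a median of 79.7%. The means were 79.0% ± 0.346 (SD, n = 7) and 79.5% ± 0.893 (SD, n = 8). Over 13 libraries they were 78.9% ± 0.274 (SD, n = 6) and 79.5% ± 0.963 (SD, n = 7). Of the heterozygous libraries, replicates 2, 7 and 8 were the highest, at 80.3%, 80.2% and 80.3%, and replicates 3 and 6, at 78.4% and 78.0%, lay below the wild-type mean. Replicate 6 also had the lowest total coverage. Within the far tiles, however, replicates 2 and 1 had fewer reads per tile, with medians of 341 and 433 against 477.5 in replicate 6. A part of depth in these levels was not tested.

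The difference was 0.554 percentage points over 15 libraries and 0.661 over 13, against 0.532 and 0.622 over all tiles. The deposited percentages are written with 2 decimals in 9 files and 3 decimals in 6. Within the former the difference was 0.401 in far tiles and 0.00960 in all tiles, and within the latter 0.988 and 1.59 (13 libraries). In labelled females it was 0.505 in far tiles and 0.930 in all tiles, and in labelled males 0.954 and -0.0410. By distance the difference of the far tiles was 0.759 at 50 to 75 kb, 0.920 at 75 to 100 kb, 0.622 at 100 to 200 kb, 0.499 at 200 to 500 kb and 0.324 beyond 500 kb.

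**Figure D3:**
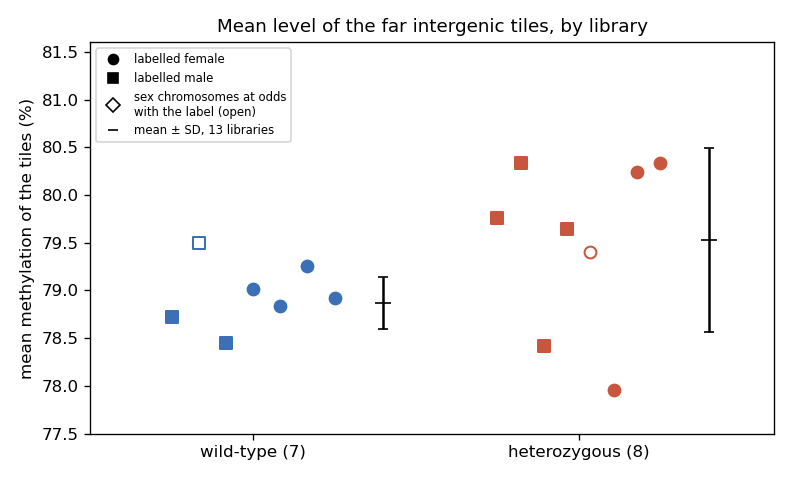
Mean methylation in percent of the 9050 far intergenic tiles (y axis, which does not start at 0) in each library, by labelled genotype (x axis); circles are labelled female, squares labelled male, and open symbols the 2 libraries whose sex chromosomes go against the label. Bars are mean ± SD over 13 libraries, and the heterozygous libraries, at 78.0% to 80.3%, span the wild-type ones.

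Tile by tile, differences were small in both directions. Over 13 libraries 5420 of the 9050 far tiles (59.9%) averaged higher in heterozygous mice, against 61.2% of all tiles, with a median difference of 0.358 points against 0.207. Only 69 far tiles (0.762%, against 1.13% of all tiles) differed by more than 10 points, 55 of them higher and 14 lower. Over 15 libraries there were 35 (0.387%, against 0.459%), 27 higher and 8 lower. The largest rise was 20.7 points over 13 libraries. Low tiles leaned the same way: 146 of the 215 (67.9%) averaged higher in heterozygous mice, with a median difference of 0.452 points, and none of them was called. Among low tiles of 3 to 5 cytosines the share was 59.3% in far tiles and 58.7% in other tiles. Low tiles of more cytosines were not compared in this way. Among tiles of any level with more than 20 cytosines the share was 78.7% in far tiles and 69.0% in other tiles. Whether the lean of the low tiles is particular to far tiles was not tested.

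Each tile was tested with a quasi-binomial logistic regression of methylated and unmethylated reads on genotype and sex, fitted over all autosomal tiles, and called at a Benjamini-Hochberg adjusted p under 0.05. Titles give each library an animal number of its own, and p-values measure the spread between these samples. Over 15 libraries no far tile was called, and 0% of the 132431 tiles tested were. At an unadjusted p under 0.05, 638 far tiles (7.05%) passed, against 9% of all tiles, and limma on log ratios also called 0. Over 13 libraries 10 far tiles (0.110%) were called, all higher in heterozygous mice, against 0.257% of 132427 tiles tested. In the higher direction the background was 0.21% and in the lower 0.0468%, so far tiles were called at a share below that of all tiles. At an unadjusted p under 0.05, 674 far tiles (7.45%) passed, against 10.5% of all tiles. By limma 3 far tiles were called over 13 libraries, against 0.104% of all tiles.

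The 10 called tiles did not sit at one level or distance. Their means ran from 33.9% upwards, they held 3 to 34 cytosines, and their differences ran from 5.32 to 20.7 points with a median of 11.9, against a median size of 11.3 over all called tiles. Cytosine by cytosine, 117 of their 118 measured cytosines averaged higher in heterozygous mice. This direction, and those within subsets below, come from the same libraries that gave the calls and are a description only. In 8 of the 10 the heterozygous and wild-type values of the 13 libraries did not overlap, and over 15 libraries this held for 1. The calls themselves favour tiles without overlap, and no share over all called tiles is given here, so the count adds no support. All 10 were higher in heterozygous mice within the files of 2 decimals (5.61 to 23.7 points) and of 3 decimals (5.25 to 30.0 points), and in labelled females and males alike. Over 15 libraries their adjusted p was 0.183 to 0.467. Of the 10, 3 overlapped a pseudogene, against 3.85% of far tiles and 13 of the 340 called tiles in all. Another 1 lay in an antigen receptor locus, where 100 of the far tiles lie. Among tiles of more than 20 cytosines, 2 of 61 far tiles and 50 of 16753 other tiles were called. These traits were seen after the calls and were not tested.

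A tile near Galnt18, a gene of mucin-type glycosylation, had the smallest p. It lay on chromosome 7 from 111858000 to 111858999, 77.9 kb from that gene and over the pseudogene Gm45588. Wild-type levels ran from 67.8% to 74.8% with a median of 71.7%, and heterozygous levels from 83.6% to 89.6% with a median of 85.9% (13 libraries). The groups did not overlap. The difference was 14.5 points between 71.5% ± 2.88 (SD, n = 6) and 86.0% ± 1.95 (SD, n = 7), with a quasi-binomial adjusted p of 0.000257 and a limma adjusted p of 0.00471. Wild-type replicate 2 had 83.9%, inside the heterozygous range, and heterozygous replicate 5 had 69.6%, inside the wild-type range. Over 15 libraries the difference was 10.7 points (adjusted p = 0.298).

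The tile near Pid1, a gene of insulin signalling in fat cells, was also called by both tools. It lay on chromosome 1 from 83811000 to 83811999, 224 kb from Pid1. Over 13 libraries, wild-type levels ran from 24.3% to 33.4% with a median of 25.1%, and heterozygous levels from 39.5% to 51.9% with a median of 46.9%, without overlap. The difference was 19.8 points (quasi-binomial adjusted p = 0.00293, limma 0.00868), from 27.2% ± 3.72 (SD, n = 6) to 46.9% ± 4.51 (SD, n = 7). Wild-type replicate 2 had 36.2%, above all other wild-type libraries, and heterozygous replicate 5 had 23.5%, below every other library of either genotype. Over 15 libraries the difference was 15.5 points (adjusted p = 0.255).

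The third tile called by limma as well lay near Nr5a2, a nuclear receptor gene. It spanned chromosome 1 from 136789000 to 136789999, 52.6 kb from the gene, over the pseudogene Gm8762. It held 34 cytosines, with 3510 to 5154 reads per library summed over them. Wild-type levels ran from 72.9% to 82.5% with a median of 78.9%, and heterozygous levels from 83.7% to 91.6% with a median of 88.5%. The groups of the 13 libraries did not overlap. The difference was 10.5 points (quasi-binomial adjusted p = 0.00698, limma 0.0492). Wild-type replicate 2 had 85.2% and heterozygous replicate 5 had 70.4%, and over 15 libraries the difference fell to 7.19 points (adjusted p = 0.467).

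The remaining 7 called tiles passed with the quasi-binomial regression but not with limma (adjusted p up to 0.239). The largest difference of all was near Ghitm, a mitochondrial inner membrane gene, on chromosome 14 from 37355000, where 36.5% ± 6.10 rose to 57.1% ± 7.71 (SD, n = 6 and 7, adjusted p = 0.0454). That tile held 3 cytosines and as few as 75 reads in a library, summed over cytosines. The lowest coverage of a single cytosine there was 25. Near Crisp1, a sperm maturation gene (chromosome 17 from 40418000), the level was 72.4% in wild-type and 85.3% in heterozygous libraries (adjusted p = 0.0423). Near Slc25a26, the mitochondrial carrier of S-adenosylmethionine (chromosome 6 from 94401000), it was 27.3% and 39.8%, and the ranges of 23.8% to 34.5% and 33.9% to 43.9% overlapped (adjusted p = 0.0300). Near Stxbp6, a syntaxin-binding gene (chromosome 12 from 45195000, 19 cytosines), 57.3% stood against 68.6%, with ranges that also overlapped (adjusted p = 0.0345).

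Near Sox14, a transcription factor gene (chromosome 9 from 99947000, 28 cytosines, over the pseudogene Gm8641), wild-type libraries had 70.3% and heterozygous ones 78.8% (adjusted p = 0.0183). A tile of 12 cytosines inside the Igk locus of antibody light chains (chromosome 6 from 69803000) had 78.0% and 83.6% (adjusted p = 0.0238). Klhl29 was the nearest protein-coding gene, 946 kb away, of the tile on chromosome 12 from 6322000, which had 82.3% and 87.6% (adjusted p = 0.0490). Just outside the threshold, the tile on chromosome 6 from 16999000, near Tes, had 68.3% and 77.6% (adjusted p = 0.0509). Measured tiles within 5 kb of a called tile existed in 3 places, and their differences were 1.57, 2.71 and -2.73 points, none past the threshold (adjusted p of 0.678 or more).

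**Figure D4:**
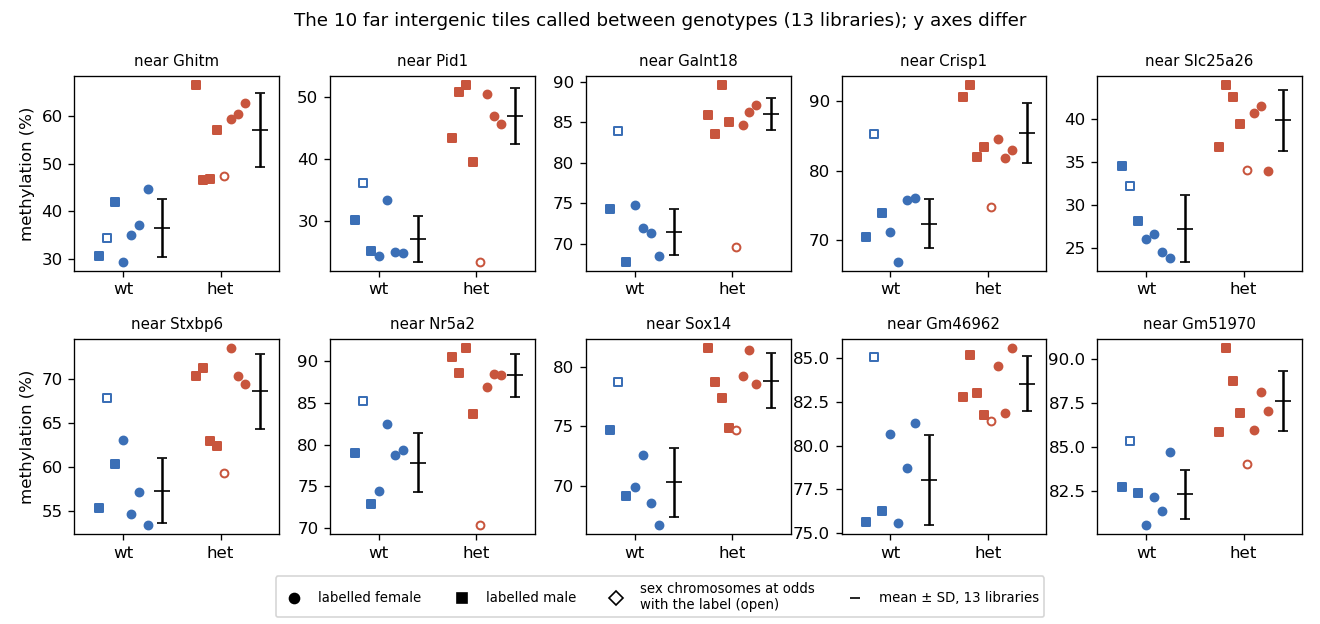
Methylation in percent (y axes, which differ and do not start at 0) in each library at the 10 far intergenic tiles called over 13 libraries, by labelled genotype (wt, wild-type; het, heterozygous), each panel titled by its nearest protein-coding or lncRNA gene (Gm46962 for the tile in Igk, Gm51970 for that nearest to Klhl29). Open symbols are wild-type replicate 2 and heterozygous replicate 5, bars mean ± SD of the other 13 libraries.

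Leaving out only wild-type replicate 2 or only heterozygous replicate 5 gave 0 called far tiles by the quasi-binomial regression, with 710 and 596 at an unadjusted p under 0.05. The shares over all tiles in those fits are not given here, so the unadjusted counts are not read as a result. Wild-type replicate 2 lay nearer the heterozygous mean at 7 of the 10 called tiles, heterozygous replicate 5 nearer the wild-type mean at 6, and both held at 5. The calls came from the 13 libraries, so these positions describe the left-out pair only. The count of 10 also moved with single libraries of the 13. It was 6 without wild-type replicate 1, 4 or 5, 4 without wild-type replicate 6, and 6 and 5 without heterozygous replicates 1 and 2. Without heterozygous replicates 7 and 8 it was 4 and 3, and without heterozygous replicate 3 it was 20. The calls over all tiles moved too. The share of far tiles called stood at 0.0331% (without heterozygous replicate 8) to 0.221% (without heterozygous replicate 3), and that of all tiles at 0.137% and 0.428% in those fits. In each of the 13 fits the share of far tiles was the lower one. The tiles near Galnt18, Pid1 and Nr5a2 remained called in each of the 13 fits that left out 1 library, and none of the 10 differences changed sign. Among members over no pseudogene or antigen receptor locus, 6 were called, in the fit that called 0.257% of all tiles.

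Over 15 libraries, 5 tiles of smallest p were singled out, of which those near Slc25a26, Ghitm and Pid1 are described above. The other 2 were near Cdh20, a cadherin gene 1348 kb away (chromosome 1 from 103419000), and near Icos, a T cell costimulatory receptor gene (chromosome 1 from 61103000). At the former, wild-type levels ran from 71.7% to 79.0% and heterozygous levels from 75.1% to 86.9% (15 libraries), with overlap, and the difference was 7.08 points (quasi-binomial adjusted p = 0.245, limma 0.454). At the latter they ran from 58.0% to 78.6% and 71.2% to 86.9%, and the difference was 11.4 points (adjusted p = 0.257). Without the pair of doubtful libraries the adjusted p of these 2 was 0.129 and 0.148.

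Spread between mice was compared with that over all tiles by its mean and its median. It was measured as the variance of level between libraries of a genotype, in squared percentage points, averaged over tiles. The variance expected from read counts was first taken off. That expectation treats reads at different cytosines of a tile as separate, although 1 read can span several. Where reads are shared too little is taken off, so these values may still hold counting error. Far tiles had 10.5 in wild-type and 11.2 in heterozygous mice (13 libraries), and 10.4 and 10.9 over 15. All tiles had 12.1 and 13.0 over 13 libraries. The median far tile had 4.72 in wild-type and 4.60 in heterozygous mice, against 4.23 and 4.85 over all tiles (13 libraries), so in wild-type mice the far tiles had the higher median and the lower mean, and in heterozygous mice both were lower. The far tile was more variable in heterozygous mice in 50.3% of cases, against 53.1% of all tiles. The difference of 0.669 over 13 libraries became 3.95 when only pairs of the same labelled sex were compared, and ran from -0.168 to 2.03 as single libraries were left out.

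No far tile was called for a difference in spread. A limma model on absolute deviations called 0 far tiles over 15 libraries, against 0.00982% of all tiles, and 0 over 13, against 0.00227%. At an unadjusted p under 0.05 it passed 620 (6.85%) and 684 (7.56%) far tiles, against 7.07% and 7.55% of all tiles. With levels in percentage points the same model called 0 and 1.

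Variance went with distance and level. It fell from 12.7 in wild-type and 13.9 in heterozygous mice at 50 to 75 kb to 6.89 and 7.18 beyond 500 kb. Among far tiles of 3 to 5 cytosines, those at 40% to 60% had 32.1 and 35.2, and those over 90% had 4.39 and 4.05. Other tiles of the same size had 34.9 and 38.6, and 3.93 and 3.84, in those classes.

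The 5 most variable far tiles (variance within genotype, 13 libraries) had 3 or 4 cytosines, and 4 of them were read fewer than 100 times in at least 1 library. The first, on chromosome 17 from 81201000 with Thumpd2 as nearest protein-coding gene, ran from 18.7% to 70.7% over the 15 libraries with a median of 49.8% (137 to 863 reads). The one near Zfp64, a zinc finger gene (chromosome 2 from 169178000, 41 to 156 reads), ran from 0% to 41.5%. Near Car8, a carbonic anhydrase relative (chromosome 4 from 7954000), levels ran from 34.5% to 79.6%. Near Has2, a hyaluronan synthase gene (chromosome 15 from 56853000), they ran from 34.0% to 74.7%, and near Cxcr4, a chemokine receptor gene (chromosome 1 from 128679000), from 23.4% to 63.9%. None of the 5 passed the threshold by genotype over 13 libraries (adjusted p of 0.738 or more) or over 15.

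Labelled sex separated 3 far tiles. The term for sex in the 13-library regression called 3 far tiles, against 0.00604% of 132427 tiles, which is 8 tiles in all. At an unadjusted p under 0.05, 664 far tiles (7.34%) passed, against 7.4% of all tiles.

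The first was on chromosome 6 from 107092000 to 107092999, with Crbn, the cereblon gene, as nearest protein-coding gene at 292 kb and the pseudogene Gm6064 at 458 bases. Its level was 70.0% to 82.8% with a median of 75.6% in 6 males and 89.7% to 94.2% with a median of 93.1% in 7 females, without overlap. The means were 75.9% ± 4.08 (SD, n = 6) and 92.2% ± 1.78 (SD, n = 7), with a quasi-binomial adjusted p of 0.00703. Wild-type replicate 2, labelled male, had 94.7%, and heterozygous replicate 5, labelled female, had 78.2%.

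The second, on chromosome 18 from 28354000 to 28354999, with Pik3c3, a lipid kinase gene, as nearest protein-coding gene, went the other way. Males had 72.9% to 76.4% with a median of 75.6%, and females 64.5% to 68.9% with a median of 65.6%, again without overlap. The means were 75.2% ± 1.33 (SD, n = 6) and 65.9% ± 1.37 (SD, n = 7), with a quasi-binomial adjusted p of 0.00703. Read depth there also separated the sexes, at 4.82 to 5.72 per 1000000 of total coverage in males and 6.76 to 9.58 in females. The part of depth in the result was not tested. Wild-type replicate 2 had 64.8% and heterozygous replicate 5 had 75.2%.

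The third was on chromosome 1 from 101093000 to 101093999, with Cntnap5b, a gene of the neurexin family, as nearest protein-coding gene. Males had 73.6% to 83.3% with a median of 76.1%, and females 91.4% to 94.8% with a median of 92.3%. The means were 77.9% ± 4.26 (SD, n = 6) and 92.7% ± 1.32 (SD, n = 7), with a quasi-binomial adjusted p of 0.0242. Wild-type replicate 2 had 95.9% and heterozygous replicate 5 had 79.9%. At the 3 tiles both libraries thus stood on the side of their sex chromosomes and not of their label. The chromosome 6 tile remained called without any 1 of the 13 libraries, that of chromosome 18 without 12 of them, and that of chromosome 1 without 4. Without wild-type replicate 3 the count of called far tiles was 1. Over all 15 libraries as labelled 0 were called, and 652 passed at an unadjusted p under 0.05.

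**Figure D5:**
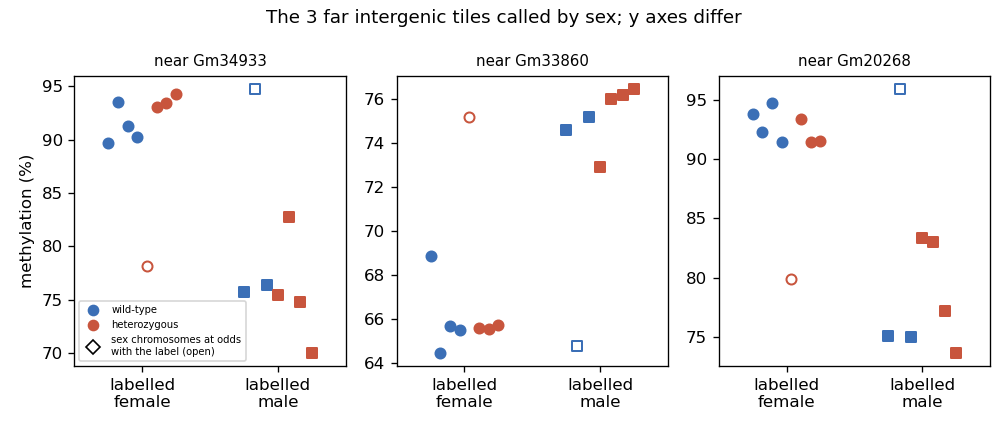
Methylation in percent (y axes, which differ and do not start at 0) in each of 15 libraries at the 3 far intergenic tiles called by sex, by labelled sex (x axis), each panel titled by its nearest protein-coding or lncRNA gene and coloured by labelled genotype. Open symbols are wild-type replicate 2 and heterozygous replicate 5, which lie with the other sex in all 3 panels.

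A genotype by sex term, which asks whether the genotype difference depended on labelled sex, called 6 far tiles (0.0663%) over 13 libraries, against 0.236% of all tiles. At an unadjusted p under 0.05, 886 (9.79%) passed, against 14.5% of all tiles. Only 2 wild-type males remain in this set. The first of the 6, with Klf4, a transcription factor gene, as nearest protein-coding gene (chromosome 4 from 55741000), had 73.2% ± 5.01 in 4 wild-type and 52.2% ± 5.37 in 3 heterozygous females. In males it had 60.4% ± 1.21 (n = 2) and 63.2% ± 1.70 (n = 4), with an adjusted p of 0.0351 by the quasi-binomial regression. The calls did not outlast the removal of single libraries. None remained without any 1 of wild-type replicates 1, 3, 4, 5 and 6 or heterozygous replicates 3, 4 and 8, with 628 to 860 far tiles at an unadjusted p under 0.05 in those 8 fits. There was 1 call without heterozygous replicate 2 or 7. Without heterozygous replicates 1 and 6 there were 83 (0.917%, against 2.13% of all tiles) and 168 (1.86%, against 4.42%).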

How the data were processed

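The series holds 15 tables of CpG cytosines, 1 per library. Per the submitters' processing notes, Bismark, methylKit and the mm10 build were used. Their versions are not given in the sources used here. Per the file headers, the deposited columns are coverage, a read count per cytosine and strand (10 or more), and the percent of reads with C (methylated) and with T, both calculated by the authors. Percentages were turned back into whole read counts. The C of each strand's listed positions was checked against RefSeq promoter sequences and found at all of the 122815 forward and 123301 reverse positions covered. Animal numbers in the sample title and the table name differ for 4 libraries, wild-type replicates 1, 2 and 3 and heterozygous replicate 5, of which wild-type replicates 1 and 3 are among the 13.

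The level of a tile is its methylated reads divided by its methylated and unmethylated reads. Both are summed over the cytosines of the tile, so a read spanning several of them counts once at each. Genes came from the RefSeq table (GRCm38.p6), lncRNAs included. The quasi-binomial regression moderates dispersion across tiles, holds it at 1 or more and uses an F test on the deviance, with sex as covariate. limma 3.58.1 (R 4.3.3) tested log ratios with 2 reads added, and deviations. Other steps used Python 3.11.15, numpy 2.4.6 and scipy 1.17.1. The regression was tested on simulated data, with the same dispersion for all tiles and large changes planted at middle levels only. Planted changes were mostly recovered, and most false calls fell at tiles under 5%, a level no called far tile has. Dispersion that varies between tiles was not simulated, so the simulation does not bound false calls among the called far tiles. The members and lists were chosen with earlier results of these data known. Replicate numbers follow sample order and pair no animals.

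Tiles were named by rule: called over 13 libraries (up to 10 rising and 10 falling), the 5 of smallest p over 15, and the 5 farthest, 5 most CpG-rich, 5 lowest, 5 most variable and 1 deepest tile. Those of the sex and interaction terms, the low runs and the tile just outside the threshold were named after their values were seen. Alternatives changed coverage, cytosine and distance limits, covariates, tests and libraries.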

Additional observations from a re-analysis of the deposited data

Results flagged for a closer look

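The genotype by sex term passed the threshold (quasi-binomial regression, 13 libraries, 2 wild-type males) at 6 far tiles (0.0663%, against 0.236% of all tiles). None of the 6 passed it with the dispersion of each tile alone, and each lost the call in 9 to 11 of the 13 fits that left out 1 library. Adjusted p was 0.0351 for the tile near Klf4 and 0.0440 for those near Nr5a2 (chromosome 1 from 137182000) and Fshr (chromosome 17 from 89450000). It was 0.0477 near Ctnnd2 (chromosome 15 from 30002000) and 0.0491 both near Cntnap5b (chromosome 1 from 101671000) and near Zfp521 (chromosome 18 from 13363000).

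Over the mean level and the named tiles, 90 groups of 7 or 8 libraries were screened for 1 library far from the rest, and 9 were marked, where chance marks about 1 in 20. That rate does not hold at tiles called without the library that stands out. Heterozygous replicate 5, which was left out of the calls, was the lowest of its group by far at 3 called tiles. It had 23.5% near Pid1, where the others had 39.5% to 51.9%, 69.6% near Galnt18, where the others had 83.6% to 89.6%, and 70.4% near Nr5a2 (chromosome 1 from 136789000), where the others had 83.7% to 91.6%. Heterozygous replicate 7 was the highest of its group at the CpG-rich tiles of chromosome 8, with 1.31% near F2rl3 (others 0.136% to 0.366%) and 4.32% near Irx5 (others 1.30% to 2.08%). Wild-type replicate 2 had 0.445% near F2rl3, against 0.186% to 0.259% in the rest of that group. In the desert of chromosome 3 (from 43824000) heterozygous replicate 2 had 94.7%, and the others 77.9% to 85.6%. Depth at that tile fell to 57 reads in 1 library, against a median of 408, so counting error may be large there. At the Mir5099 tile wild-type replicate 3 had 90.9%, against 94.4% to 96.4% in the rest of that group. At the tile of chromosome 1 from 137182000 heterozygous replicate 8 had 59.6%, and the others 45.9% to 52.3%.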

How the results depend on the processing

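The 10 called far tiles of the 13-library fit became 6 with at least 5 cytosines per tile, 3 with limma (0.0331%, against 0.104% of all tiles) and 2 with the dispersion of each tile alone. They became 5 among members over 100 kb from a gene, 3 among those over 50 kb from every annotated gene of any kind and, chosen after seeing the data, 6 over no pseudogene or antigen receptor locus. These subsets come from the fit that called 0.257% of all tiles. Where a count of far tiles has no share over all tiles beside it, here or above, it describes those tiles alone. In files with 2 decimals the quasi-binomial regression called 0 (381 at an unadjusted p under 0.05), with 4 libraries in each genotype. Leaving out single libraries gave 3 to 20. Of the 11 other settings tried, 4 stayed within 1.5 times of the count. The 15-library count was 0 in all settings and without any 1 library. The variance difference of 0.527 over 15 libraries became 3.24 for pairs of the same labelled sex and 2.78 in files with 2 decimals, and that of 0.669 over 13 became 3.95 for pairs of the same labelled sex. The mean level difference stayed between 0.269 and 0.860 points over 15 libraries and between 0.401 and 0.988 over 13 under the other settings. The spread model called 1 far tile over 13 libraries with levels in percentage points. The 3 sex calls became 0 with the dispersion of each tile alone (667 at an unadjusted p under 0.05) and 0 over all 15 libraries, and 1 to 4 as single libraries were left out, 2 settings chosen after seeing the data. The 6 genotype by sex calls became 0 with the dispersion of each tile alone (903 at an unadjusted p under 0.05) and 0 to 168 without single libraries, also chosen after seeing the data. The causes were not tested. None of the tiles tested under these settings (the called tiles, those of smallest p, and those of the sex and genotype by sex terms) changed direction. Few cytosines and as few as 41 reads per tile and library limit the variable tiles. No paired analysis was possible because the replicate numbers follow sample order and name no shared litter or day.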
